A study of Mus musculus with 71 samples.

Results

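In cultures of mouse spinal cord progenitors, 3009 of 155738 chromatin intervals (1.93%) became accessible between day 5 and day 7 and held that level to day 11 in the WT genotype, at a similar level in all 3 sorted populations on day 11. They were chosen from the WT values on a log2(value + 5) scale, where a difference of 1 is a doubling at high values and more than that at low ones. The level of a day was the mean over the 3 populations of the group means. An interval was taken when day 7 exceeded day 5 by at least 1, when day 11 lay within 0.7 of day 7, and when the day 11 levels of the 3 populations spanned less than 1. WT days 5, 7 and 11 therefore chose the intervals and are described here with no test. MUT libraries played no part in the choice, and WT day 9 carried no condition, so tests are given for these.

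The study followed embryonic stem cells through neural differentiation and measured chromatin accessibility by CaTS-ATAC, a form of ATAC-seq in which fixed cells are transposed, stained for proteins inside the cell and then sorted. Populations p0-p1, p2 and pMN were collected on days 5, 7, 9 and 11 from 2 genotypes. All cultures began with the growth factor bFGF, then received the GSK3β inhibitor CHIR99021, then retinoic acid together with the Smoothened agonist SAG, and stayed in SAG alone from day 5.

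The WT groups were p0-p1, p2 and pMN in a fraction titled NFIAn on days 5, 7 and 9, p2 and pMN in a fraction titled NFIAp on day 9, and all 3 populations in the NFIAp fraction on day 11. The MUT groups were the same 3 populations on each day, all titled NFIAn. The labels name neither the mutated gene nor the cell line, and they do not say what NFIAn and NFIAp stand for; the titles are used here as they are, and a reading as cells sorted without and with NFIA protein would fit them. WT day 11 differs from WT day 7 in fraction as well as in day, and MUT differs from WT on day 11 in fraction as well as in genotype, so these cannot be told apart. Whether replicates came from separate cultures is not given, so a p-value reflects how far these libraries scatter and no more, and that scatter may be technical.

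ATAC-seq uses a transposase that inserts sequencing adapters where DNA is not wrapped or covered, so promoters and enhancers in use give more reads. In the ventral neural tube, a gradient of Sonic hedgehog, whose pathway SAG switches on, sets up progenitor domains along the dorsal to ventral axis: p0 and p1, which make interneurons, p2, which makes V2 interneurons, and the Olig2-expressing pMN, which makes motor neurons and later oligodendrocyte precursors. NFIA is a transcription factor known for the change of these progenitors from making neurons to making glia. In bulk libraries, more cells with an open interval and a more open interval in each cell cannot be told apart.

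There were 71 libraries, 38 WT and 33 MUT, in 26 groups, 7 of 2 and 19 of 3, with 20034731 to 31315134 reads each in the intervals and a median of 24375871. The mean value of the 3009 intervals over libraries had a median of 50.9 (range 5.29 to 2318), at which counting error alone is 14.0%. The table numbers its intervals and gives no position, gene or sequence, so intervals go by number, their lengths are unknown and the marker genes of the populations could not be checked. Values of different intervals are therefore not per length and speak to depth only. In a run of 5 neighbouring intervals every other MUT library had at most 1 read and every other WT library at least 148, but the library labelled MUT day 7 pMN replicate 3 had 213 and the one labelled WT day 7 pMN replicate 3 had 0. Both were left out of the choice and of all tests, which used 69 libraries, with 2 in each day 7 pMN group. Counted in, these 2 libraries would have given 3085 intervals instead of 3009. Of the 3009 intervals, 310 lie in 3 runs of consecutive numbers in which the median difference of MUT from WT on day 5 was -0.15, -0.15 and 0.29, against 0.05 elsewhere. Without the 310 intervals the total of calls in each limma test given here stayed within 1.5 times its size. Of the intervals named below, Interval_21607, Interval_21939, Interval_24687, Interval_25181, Interval_26197 and Interval_27705 lie in the first run and Interval_140675 in the second.

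In WT the 3009 intervals took a small share of the signal on day 5 and more than that on every later day, with the highest medians on day 9. Their share of all signal in a WT library ran from 0.422% through a median of 0.564% to 0.745% on day 5 (6 libraries), and from 1.29% through 1.62% to 1.93% on day 7 (8 libraries). On day 9 it ran from 1.87% through 2.01% to 2.13% in the NFIAn fraction (8 libraries) and from 1.70% through 2.04% to 2.09% in the NFIAp fraction (6 libraries). It was 1.51%, 1.56% and 1.75%, lowest, median and highest, on day 11 (9 libraries). No day 5 library overlapped a later one, and every day 11 library lay below every NFIAn library of day 9. In MUT, whose libraries had no say in the choice, the share was 0.406%, 0.640% and 0.831% on day 5 (9 libraries) and 1.44%, 1.73% and 1.85% on day 7 (8 libraries). It was 2.08%, 2.30% and 2.43% on day 9 (6 libraries) and 1.89%, 2.05% and 2.38% on day 11 (9 libraries), above all 9 WT libraries of day 11.

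**Figure D1:**
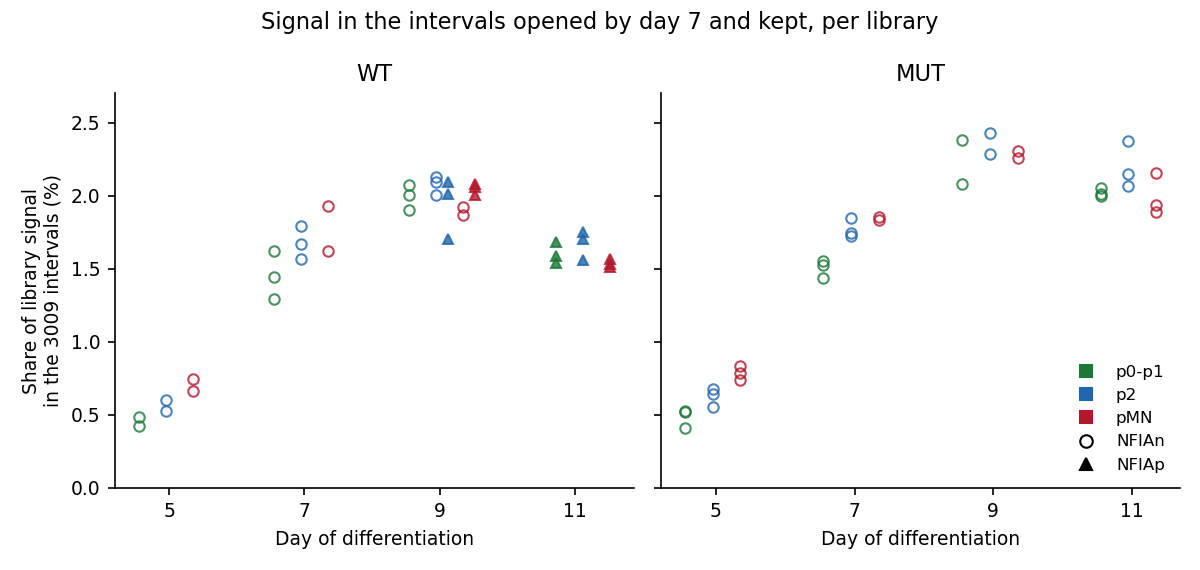
Share of each library's signal (%, y axis) in the 3009 intervals by day of differentiation (x axis), for WT (left) and MUT (right). Each point is 1 library, coloured by population, with open circles for NFIAn and filled triangles for NFIAp; day 5 libraries reach at most 0.831% and all later ones at least 1.29%.

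The rise from day 5 to day 7 in WT had a median of 1.32 on the log2 scale (quartiles 1.13 and 1.65, range 1.00 to 4.04), and the median level went from 4.24 to 5.75. Many intervals had few reads at the start: 1172 (38.9%) had a mean value under 10 on WT day 5, against 21.7% of all intervals. A value of at least 10 was reached by 60.1% of the 3009 in the median WT library of day 5, by 94.8% on day 7 and by 91.3% on day 11. Day 11 differed from day 7 by a median of -0.07, within a range that the choice held within 0.7 either way.

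The choice asked for a mean WT rise of at least 1 over the populations, which by itself makes such a rise in several of them likely. The counts by population are therefore a description. In WT, 1555 (51.7%; 3.95% of all intervals) rose by at least 1 in each of the 3 populations. Another 1168 (38.8%; 4.19%) did so in exactly 2 and 286 (9.5%; 7.42%) in 1 alone. By population, p0-p1 had 2455 with a rise of at least 1 (9.96% of all intervals did), p2 had 2547 (9.60%) and pMN had 2285 (8.08%). At the limits of the choice, the smallest rise inside was 1.00 (Interval_60379) and the largest rise outside 0.99997 (Interval_144541). The largest change from day 7 to day 11 inside was 0.6996 (Interval_2356) and the nearest outside 0.70029 (Interval_21607). The widest span of populations inside was 0.99944 (Interval_109516) and the narrowest outside 1.0002 (Interval_153095).

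The intervals with the steepest opening started from few reads or from many. Interval_6954 had values of 11.2, 19.9 and 37.0 (lowest, median and highest of 6 libraries) on WT day 5 and 278, 418 and 681 on day 7. It then stood at 458, 512 and 552 in the NFIAn libraries of day 9 and at 226, 279 and 356 on day 11. Values of a day over all populations are given in this order from here on. Values of a single population are given library by library. Every later library lay above every day 5 library, and day 11 lay below day 9 without overlap.

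Interval_111397 began higher, at 75.8, 84.6 and 107 on WT day 5, and reached 1006, 1351 and 1710.1 on day 7, 1427, 1549.5 and 1715 on day 9 NFIAn and 1176, 1781 and 2019 on day 11. Days 7, 9 and 11 overlapped. Interval_27705, whose rise and mean value are both near the median of the 3009, had 15.7, 18.3 and 28.2 on WT day 5, 26.6, 63.8 and 92.0 on day 7 and 44.5, 74.2 and 92.8 on day 11. Here days 5 and 7 overlapped slightly. The interval with the highest mean value, Interval_26197, was already open on day 5, at 950.4, 1192 and 1703, and stood at 2296, 3122 and 3389.8 on day 7 and 2062, 2741 and 4000.3 on day 11.

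WT day 9, on which the choice set no condition, lay close to day 7 and on average somewhat higher. The median difference of day 9 NFIAn from day 7 was 0.23 (0.02 over all intervals), and 2211 of the 3009 intervals were above day 7. Day 9 was within 0.7 of day 7 in 2625 intervals (87.2%; 81.4% of all intervals), higher by at least 0.7 in 360 (12%; 7.81%) and lower by that much in 24 (0.798%; 10.8%). Day 11 lay below day 9, with a median difference of -0.31 (-0.01 over all intervals). Day 9 was the highest of days 7, 9 and 11 in 1838 intervals (61.1%), against 17.6% of all intervals, and in 1707 (56.7%) in MUT, against 18.3%. Days 7 and 11 were held near each other by the choice in WT, so the WT count is a description. The change from day 7 to day 11 went together in MUT and WT (Pearson's r of 0.86 over all intervals). In MUT, day 11 was within 0.7 of day 7 in 74.1% of the 3009, against 57.1% of all intervals. The MUT count is therefore not free of the choice either, and the 18.3% of all intervals is not an even comparison for it.

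Most of these intervals also rose in MUT over the same days. All 3009 intervals were higher on MUT day 7 than on day 5, with a median change of 1.26 against -0.02 over all intervals. Tested with limma, with Benjamini-Hochberg adjustment over the 155734 intervals in which 2 or more libraries had a value of 10 or above, 2275 (75.6%) rose by at least 1 at an adjusted p under 0.05. Of all intervals tested, 7.26% were called higher and 4.38% lower; none of the 3009 was called lower, by limma or by edgeR on the recovered reads. The count was 2054 of 2699 without the 3 runs of numbers and 2316 with all 71 libraries. A pseudocount of 20 in place of 5, which shrinks every log2 change, gave 1148.

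Each population of MUT gave a similar picture. Called as rising were 2218 intervals of p0-p1 (9.91% of all), 2304 of p2 (9.72%) and 1872 of pMN (6.83%). None was called lower, where 4.79%, 6.13% and 6.90% of all intervals were, and 14.7%, 15.8% and 13.7% were called in either direction. The rise was at least 1 in all 3 populations in 1352 intervals (44.9%; 3.66% of all), in 2 of them in 897 (29.8%; 4.37%), in 1 in 548 (18.2%; 6.73%) and in none in 212 (7.05%; 85.2%). Across the 3009 intervals the MUT and WT rises had a Pearson's r of 0.86; these intervals share libraries, so the value is a description.

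**Figure D2:**
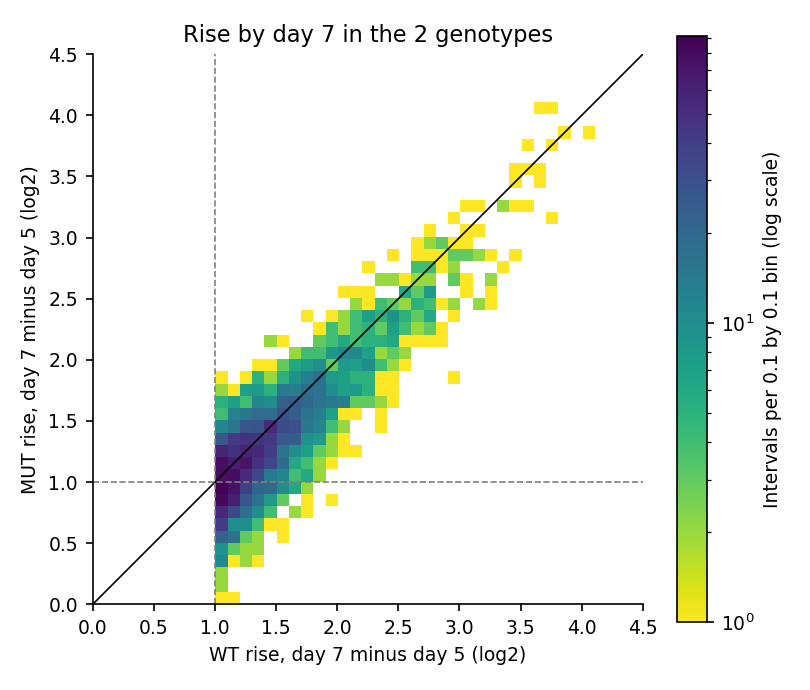
MUT rise (log2, y axis) against WT rise (log2, x axis) from day 5 to day 7 for the 3009 intervals, counted in bins of 0.1 with colour on a log scale. The solid line marks equal rises and the dashed lines a rise of 1; the choice cut the x axis at 1 and left the y axis free, where the values lie around a median of 1.26.

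The largest MUT rises were in intervals that rose steeply in WT too. Interval_1691 had 7.96, 10.5 and 12.2 on MUT day 5 and 133, 247 and 417 on day 7, a change of 4.08 ± 0.124 (standard error; limma adjusted p 9.01e-37). It went on to 494, 543 and 683 on day 9 and came back to 262, 286 and 342 on day 11, with no overlap between days 9 and 11. Interval_120965 went from 9.81, 22.8 and 44.9 to 231, 432 and 647, a change of 4.02 ± 0.133 (limma adjusted p 5.97e-35), and fell after day 7 by 1.07 ± 0.133 to 150.4, 201 and 295 on day 11 (limma adjusted p 1.80e-10).

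Interval_6954 had 8.83, 23.7 and 41.1 on MUT day 5 and 260.1, 392 and 560.0 on day 7, a change of 3.85 ± 0.109 (limma adjusted p 1.81e-38), and the libraries overlapped the WT ones on both days. The typical Interval_27705 went from 12.6, 19.3 and 30.3 to 34.8, 58.7 and 75.8 in MUT, a change of 1.31 ± 0.126 (limma adjusted p 1.15e-13), and its days did not overlap.

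The MUT rise was under 1 in 734 intervals. Their median was 0.85, against 1.12 in WT, and their mean value had a median of 24.6, so they rest on fewer reads. The choice held the WT rise at 1 or more, so in these intervals WT exceeded MUT by construction. Whether the genotypes differ in the rise was not tested. A MUT rise of less than 0.5 was seen in 37 (1.23%; 81.4% of all). Interval_21939 had the smallest MUT rise among those with a mean value at or above the median of all intervals. It had 10.9, 15.1 and 21.6 on MUT day 5 and 14.5, 22.3 and 28.7 on day 7, a change of 0.34 ± 0.171 (limma adjusted p 0.0935), where WT went from 5.13, 12.2 and 24.4 to 19.5, 31.1 and 40.4. It rose later in MUT, by 1.23 ± 0.171 from day 7 to day 11 (limma adjusted p 4.11e-09), to 39.2, 60.7 and 83.5.

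After day 7 most of the intervals stayed within 0.7 of their level in MUT, but on day 9 less often than all intervals did. Those that moved mostly moved up. MUT day 9 was within 0.7 of day 7 in 2055 intervals (68.3%; 81.3% of all intervals). It was higher by at least 0.7 in 938 (31.2%; 9.36%) and lower by that much in 16 (0.532%; 9.33%). From day 7 to day 9, 369 rose and 2 fell by at least 1 (limma; 3.87% and 4.28% of all intervals), and the median change was 0.47. By day 11, 290 had risen since day 7 (15.8% of all) and 43 had fallen (12.9%), with a median of 0.31 against 0.02 over all intervals. In either direction 12.3% of the 3009 were called on day 9 (8.15% of all) and 11.1% on day 11 (28.8% of all). The choice held WT day 11 near day 7, and this change went together in the 2 genotypes (Pearson's r of 0.86 over all intervals). The MUT counts of day 11 against day 7 are therefore not free of the choice. Compared with day 5, 2488 intervals were called higher on day 11 (21.0% of all) and none lower (17.1%); edgeR gave 2692 and 2. edgeR on the recovered reads gave more calls, 572 higher and 7 lower on day 9 and 435 and 65 on day 11.

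The full set of conditions, put to the MUT values, was met by 1555 intervals (51.7%), against 2.30% of all intervals. Of the rest, 734 rose by less than 1 (24.4%; 92.7% of all), and 445 rose and then gained at least 0.7 by day 11 (14.8%; 1.63%). Another 86 rose and then lost at least 0.7 (2.86%), a share near the 2.54% of all intervals, and 189 kept their level but spanned at least 1 between populations on day 11 (6.28%; 0.794%). Other sets that opened by day 7 in WT give the scale. Day 11 was within 0.7 of day 7 in 74.1% of the 3009 intervals, in 11.4% of the 2343 that went on rising in WT, in 30.1% of the 5033 that reverted and in 57.1% of all intervals. Among the 1204 intervals that kept their level in WT but were uneven between populations the share was 71.3%. The rise by day 7 was at least 1 in MUT in 75.6% of the 3009, 71.4% of the 2343, 82.7% of the 5033, 75.1% of the 1204 and 7.26% of all intervals. These shares are descriptions, with no test.

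**Figure D3:**
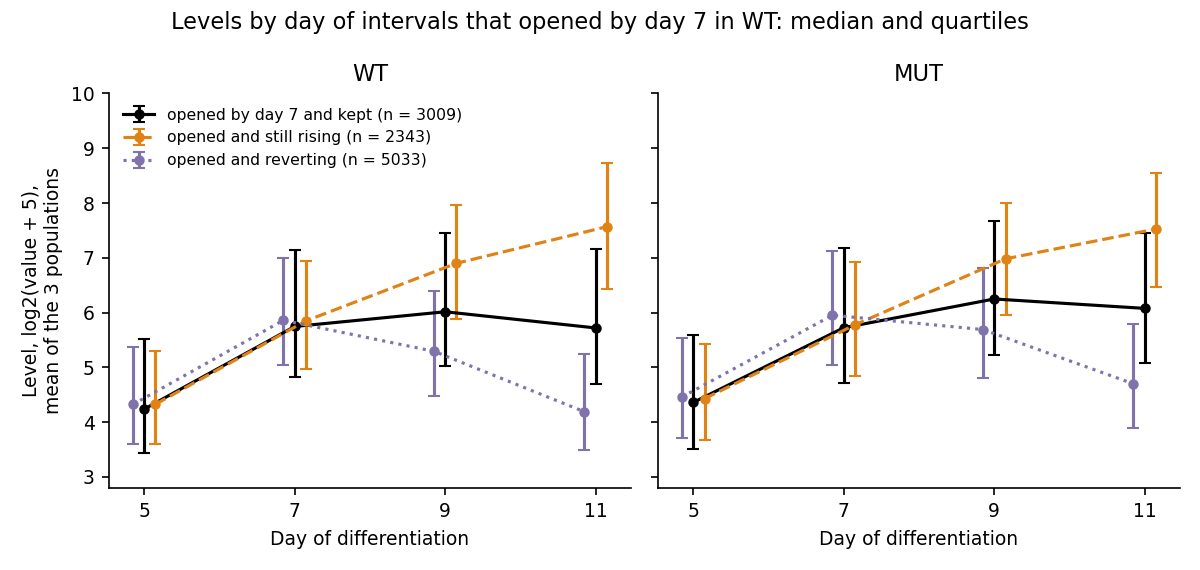
Median level with quartile bars, log2(value + 5) averaged over the 3 populations (y axis), by day (x axis) in WT (left) and MUT (right), for the 3009 intervals and for those that went on rising (2343) or reverted (5033) in WT. WT days 5, 7 and 11 defined the sets; in MUT, which did not, the medians of the 3009 run from 4.36 on day 5 to 5.72, 6.25 and 6.08.

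Single intervals show how far the exceptions went. Interval_2356, which lies at the limit of the choice in WT, had 16.8, 24.5 and 26.5 on MUT day 7 and 83.8, 108 and 149 on day 9, a change of 2.03 ± 0.145 (limma adjusted p 3.42e-18). It stayed at 81.7, 130.1 and 159 on MUT day 11, where WT had come down from 83.6, 115 and 134 on day 9 NFIAn to 25.5, 45.1 and 75.2. The genotypes overlapped on day 9 and did not on day 11.

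Interval_2575 went the other way in MUT, from 131, 241 and 515 on day 7 to 34.9, 47.7 and 69.8 on day 11, and fell by 2.33 ± 0.142 (limma adjusted p 1.19e-22). WT went from 81.9, 210 and 375 on day 7 to 48.7, 97.1 and 147 on day 9 NFIAn. It stood at 109, 142 and 216 on day 11, in the NFIAp fraction. Interval_17546 likewise dropped from 26.4, 53.2 and 109 to 5.73, 8.72 and 11.0 in MUT, by 2.26 ± 0.154 (limma adjusted p 1.82e-20), and was at 35.4, 62.2 and 79.8 on WT day 11. WT had 20.2, 51.4 and 116 in Interval_17546 on day 7 and 18.1, 27.3 and 54.8 on day 9 NFIAn. In both intervals no MUT library of day 11 reached the lowest WT one of that day.

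Although the intervals ended at a common level by choice, part of them began unequally, with pMN ahead. On MUT day 5, 617 of the 3009 differed among the 3 populations (limma F-test, range of at least 1; 16.4% of all intervals did), and pMN was the highest in 568 of them (11.2% of all), p0-p1 in 31 (4.59%) and p2 in 18 (0.593%). pMN was thus the highest in 92.1% of these calls, against 68.4% of those over all intervals. The lead was not particular to the 3009, where pMN exceeded p0-p1 on WT day 5 by a median of 0.23 (-0.07 over all intervals). In the other sets that opened by day 7 in WT it was 0.25 (the 1204 uneven on day 11), 0.19 (the 2343 still rising) and 0.17 (the 5033 that reverted). In the 568, pMN exceeded p0-p1 on MUT day 5 by a median of 1.58, which chose them. On WT day 5 the median was 1.49 and 567 of 568 were above 0; those libraries entered the choice of the 3009 through their mean over populations, so the value is a description. In MUT the median lead was 0.95 on day 7, 0.26 on day 9 and -0.20 on day 11. In WT it was -0.15 on day 11, where the choice capped it. Picking the 568 by their MUT day 5 lead by itself favours a smaller lead on other days. The later MUT values are therefore a description. Over all libraries the mean value of the 568 had a median of 128.

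Interval_140675 is the clearest case. Its values on MUT day 5 were 2.27, 1.96 and 4.21 for p0-p1, 32.2, 54.6 and 37.4 for p2 and 143, 106 and 133 for pMN, a span of 4.08 on the log2 scale (limma F-test adjusted p 1.01e-22). WT day 5 had 3.39 and 2.25, then 39.5 and 48.8, then 175 and 148. By MUT day 11 it had 128, 119 and 99.4 for p0-p1, 149, 125 and 103 for p2 and 82.8, 89.1 and 93.3 for pMN. The interval was near 0 in p0-p1 on day 5 in both genotypes, and pMN was the lowest population on MUT day 11.

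The size of the opening also differed among populations in part of the intervals. The MUT rise by day 7 differed among populations in 345 of the 3009 intervals (limma interaction F-test; 6.09% of all), with median rises of 1.90 for p0-p1, 1.68 for p2 and 0.76 for pMN. Interval_121099 went from 18.2, 25.5 and 15.8 to 197, 224 and 173 for p0-p1 and from 112, 124 and 119 to 361, 405 and 483 for p2, while pMN went from 474, 378 and 376 to 315 and 344. The rises differed by 3.35 (limma interaction adjusted p 7.89e-12). Interval_48124 was alike, from 11.4, 15.7 and 11.6 to 169.6, 195 and 152 in p0-p1 but from 243, 192 and 199 to 259 and 259.8 in pMN, a difference of 3.02 (limma interaction adjusted p 3.70e-10).

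**Figure D4:**
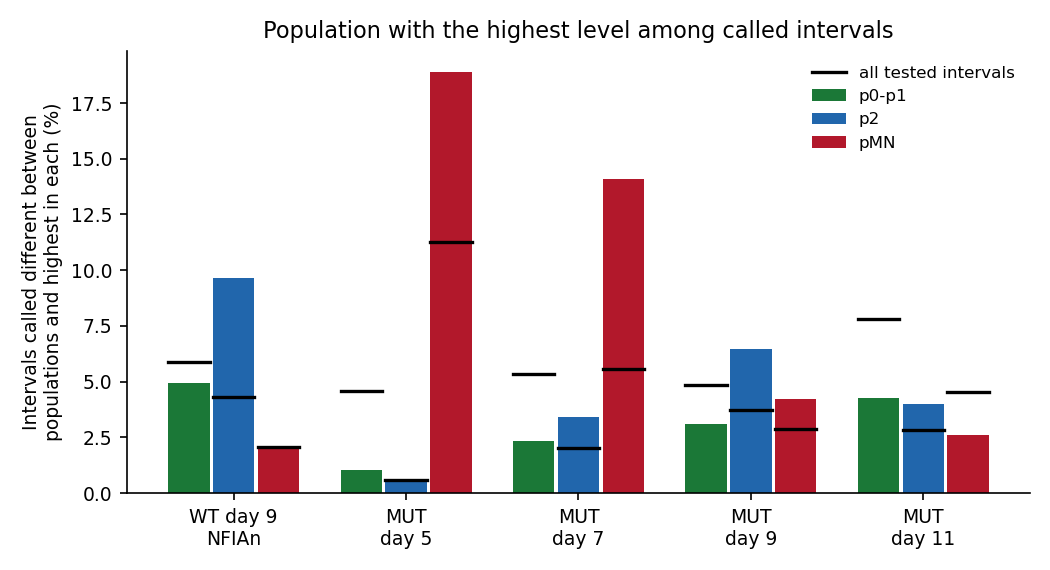
Percent of the 3009 intervals called different among the populations (limma F-test, y axis), by the population with the highest level (colours), for WT day 9 NFIAn and the 4 MUT days (x axis); black lines give the same percent of all intervals tested. pMN leads on MUT days 5 and 7, with 568 and 425 intervals, and p2 on day 9.

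The leading population changed with the day. On MUT day 7, 598 intervals differed among populations (12.9% of all intervals), 425 highest in pMN (5.59%), 103 in p2 (2.02%) and 70 in p0-p1 (5.33%). On MUT day 9 there were 416 (11.5%), of which 195 were highest in p2 (3.74%), 127 in pMN (2.87%) and 94 in p0-p1 (4.85%). On MUT day 11 there were 327 (15.2%), with p0-p1 the highest in 128 (7.81%), p2 in 121 (2.83%) and pMN in 78 (4.55%). The choice capped the span of the WT populations on day 11. Differences of pMN from p0-p1 went together in the 2 genotypes (Pearson's r of 0.86 on day 9). The total of MUT day 11 is therefore not free of the choice. pMN held most of the calls on day 7, and no population did on days 9 and 11. The day 5 and day 7 lists had 311 intervals in common, 50.4% of the first and 52% of the second, with the same highest population in 262. The day 5 and day 11 lists shared 85, 13.8% and 26%, with the same highest population in 15.

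In WT day 9 NFIAn libraries, 503 intervals differed among populations (12.3% of all), 290 highest in p2 (4.34%), 149 in p0-p1 (5.88%) and 64 in pMN (2.06%). MUT day 9 shared 295 of these, 58.6% of the WT list and 70.9% of the MUT list, and 278 had the same highest population. Interval_56443, with the widest span among called intervals whose mean value was at or above the median of all and whose extreme populations did not overlap, had 51.7, 73.3 and 81.0 for p0-p1, 93.1, 152 and 159 for p2 and 16.9 and 21.9 for pMN of WT, a span of 2.49 (limma F-test adjusted p 1.01e-07), and 91.4 and 97.8, 107 and 184, and 26.6 and 25.5 in MUT. pMN was below the other populations without overlap in both genotypes.

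Some intervals stayed higher in pMN. Interval_2868 had 15.5, 12.7 and 18.0 for p0-p1, 41.1, 34.1 and 43.8 for p2 and 185 and 259 for pMN on MUT day 7, a span of 3.46 (limma F-test adjusted p 2.84e-11). On MUT day 9 it had 43.3 and 27.2, 60.8 and 71.6, and 204 and 330.0. On MUT day 11 it had 54.8, 31.3 and 42.1, 57.3, 51.6 and 33.9, and 106, 84.2 and 87.7. pMN was the highest on each of these days without overlap, and the span was 2.75 on day 9 and 1.05 on day 11.

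The NFIA fractions of WT day 9 differed in some of the intervals in p2, and no interval was called in pMN. In p2, 182 of the 3009 intervals were lower in NFIAp than in NFIAn and 16 higher (limma, change of at least 1; 2.61% and 1.15% of all intervals, 3.76% in either direction). The pMN fractions gave 0 calls (limma; 0.00835% of all), with 126 of the 3009 at an unadjusted p under 0.05, against 15676 of the 155734 tested, and edgeR called none either. The median change of the 3009 was -0.08 in p2 and 0.11 in pMN.

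Among the falling intervals, Interval_51533 had 109.9, 171 and 184 in the NFIAn libraries of p2 and 25.4, 57.0 and 41.2 in the NFIAp ones, a fall of 1.82 ± 0.271 (log2(value + 5); limma adjusted p 2.12e-06). pMN stood at 38.1 and 85.8 in NFIAn and 37.8, 47.6 and 57.1 in NFIAp, close to the NFIAp libraries of p2. Interval_90254 fell by 1.80 ± 0.248, from 143, 156 and 171 to 36.6, 48.7 and 39.3 in p2 (limma adjusted p 4.75e-07), and pMN had 42.3 and 59.8, then 31.0, 43.3 and 57.1. Of the risers, Interval_65040 went from 11.2, 17.6 and 22.7 to 55.4, 76.7 and 59.9 in p2, a change of 1.66 ± 0.282 (limma adjusted p 2.44e-05), towards the 60.3 and 156 of pMN NFIAn. In all of these the p2 fractions did not overlap.

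The 182 falling intervals had a level in pMN below that of p2 in MUT as well, with a median of -0.94 on MUT day 9 and -0.86 on MUT day 11, libraries that the comparison did not use. In the NFIAp fraction of WT day 9 pMN and p2 were level in them, with a median difference of 0.03, and from the NFIAp fraction of day 9 to day 11 p2 changed by a median of 0.10; both values rest in part on the libraries that gave the calls. In the 16 risers pMN exceeded p2 by 1.43 in the NFIAn fraction of day 9, again on shared libraries.

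Tested directly, the fraction difference was lower in p2 than in pMN in 133 intervals and higher in none (limma interaction; 1.56% and 0.0693% of all, 1.63% in either direction), and edgeR gave 110 and 1. Interval_25181 had 321, 403 and 463 against 112, 85.0 and 148 in p2 and 67.7 and 117 against 85.3, 129 and 135 in pMN, a difference of -2.10 ± 0.344 (limma interaction adjusted p 2.15e-04). Interval_58799 had 115, 121 and 167 against 42.3, 22.8 and 58.1 in p2 and 28.6 and 36.9 against 29.1, 58.1 and 64.2 in pMN, a difference of -2.15 ± 0.422 (limma interaction adjusted p 0.00162). In a fit of only the groups compared these adjusted p were 0.0707 and 0.128, and without WT day 9 pMN NFIAn replicate 1 that of Interval_58799 was 0.0563. The count of 133 hung on single libraries of these small groups. It was 5 without WT day 9 pMN NFIAn replicate 1, 205 without replicate 2 of that group, 67 and 88 without replicates 3 and 2 of p2 NFIAn, and 71 without replicate 3 of pMN NFIAp. It was 3 in a fit of only the groups compared and 201 with the replicate number within genotype and day as a random block.

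One library of the p2 comparison stood nearer to pMN than its replicates. Over all intervals, the correlation of its deviation with the pMN minus p2 difference was 0.0985 for WT day 9 p2 NFIAp replicate 2, against -0.248 and -0.342 for replicates 1 and 3. WT day 7 p2 replicate 2 also stood apart, with 16.4% of its signal in the top 1% of intervals against 18.1% and 18.2% in replicates 1 and 3. Without both, 225 intervals were lower and 15 higher in p2 NFIAp, 1 was called in pMN, and 153 differed between p2 and pMN. A fit of only the groups compared called 92 of the 3009 in p2.

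Few intervals were called different between MUT and WT on day 9, where both were NFIAn, whether among the 3009 or all intervals. The calls took in 0.432% of the 3009. MUT was higher in 11 and lower in 2 (limma, change of at least 1; 0.381% and 0.277% of all intervals, 0.658% in either direction), with a median difference of 0.18 against 0.07 over all intervals. Interval_40354, in the third of the shifted runs of numbers, had 30.9, 40.1 and 53.4 in WT and 89.7, 100.2 and 141 in MUT, a difference of 1.33 ± 0.138 (limma adjusted p 5.36e-11). Interval_2575 was higher in MUT by 1.17 ± 0.157 (limma adjusted p 6.34e-08), at 173, 192 and 301 against 48.7, 97.1 and 147. The genotypes did not overlap in either. Outside the shifted runs 10 were higher and none lower, and quantile normalization gave 5 higher and 3 lower. The total of 13 became 23 without MUT p2 replicate 1, 20 without MUT pMN replicate 1 and 25 without WT pMN NFIAn replicate 2.

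On day 11 MUT NFIAn exceeded WT NFIAp by a median of 0.34 in the 3009 intervals, with 2468 above 0 (82.0%; 54.5% of all intervals). The difference was at least 1 in 79 of them (2.63%; 1.07% of all) and at most -1 in 26 (0.864%; 7.13% of all). WT day 11 chose the intervals, so no test is given. With equal library totals the median over all intervals moved from 0.05 to 0.17 and that of the 3009 from 0.34 to 0.49.

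**Figure D5:**
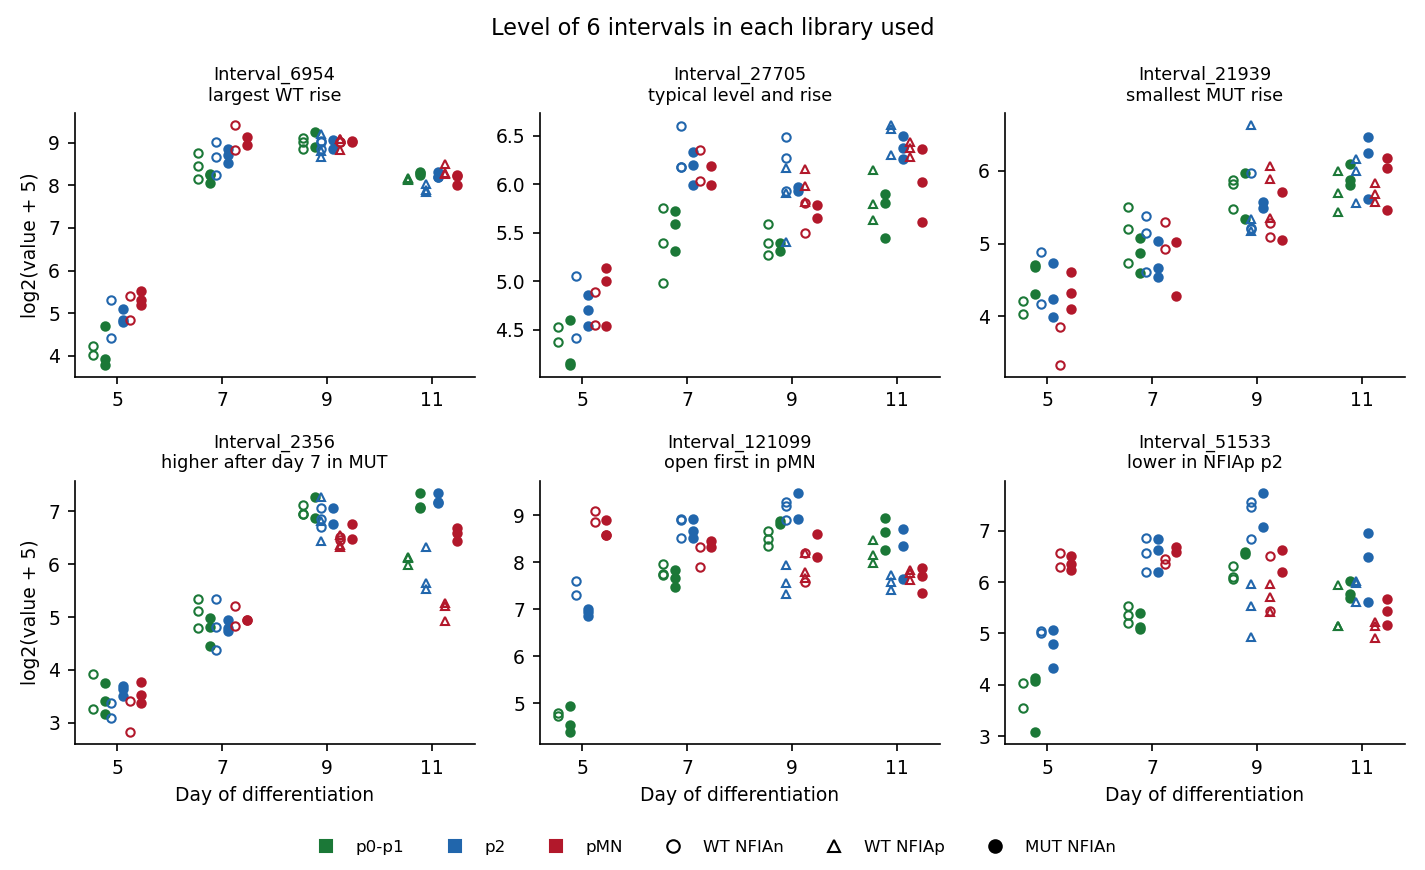
Level, log2(value + 5) (y axis), by day (x axis) in each of the 69 libraries used, for 6 intervals described in the text; open circles are WT NFIAn, open triangles WT NFIAp and filled circles MUT, coloured by population. Interval_121099 starts with pMN at the top and p0-p1 at the bottom on day 5, and in Interval_51533 the NFIAp libraries of p2 lie below the NFIAn ones on day 9.

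The intervals were spread over the whole range of numbers, with 120 to 261, and a median of 197, in each of 15 stretches of 10000 numbers. Most stood alone: 2782 had no other of the set at the next or previous number, 104 pairs and 5 triples adjoined, and the longest run was of 4. In all, 227 (7.54%) had a neighbour in the set at the next or previous number. Of all intervals 1.93% belong to the set, which is the share for a single number. With both sides counted, the share to set beside 7.54% would be larger than 1.93%, and it was not worked out. The 5660 adjoining intervals outside the set rose less, by a median of 0.21 in WT and 0.18 in MUT, against 0.00 and -0.02 over all intervals, and 12.5% of them rose by at least 1 in MUT, against 7.26%. Whether consecutive numbers are neighbours on a chromosome is not given with the table.

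In the run of 4, the intervals differed in course. Interval_143691 had 9.12, 12.7 and 21.6 on MUT day 5, 27.9, 37.6 and 53.7 on day 7 and 19.6, 28.2 and 45.7 on day 11. Interval_143692 came back down in MUT, from 67.1, 94.6 and 129 on day 7 to 29.5, 34.2 and 43.9 on day 11. Interval_143693 and Interval_143694 went on up, from 111, 172 and 195 to 196, 306 and 389 and from 30.9, 41.1 and 61.9 to 61.5, 90.4 and 150.4. All 4 lie within the second of the shifted runs of numbers.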

How the data were processed

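Chromatin accessibility was measured in 71 libraries, grouped by the genotype, day, population and NFIA fraction in their labels, and every library had a column. The authors deposited 1 table of signal values, read counts per interval divided by a size factor per library, on build mm10 per the submitters' processing notes; aligner, peak caller and filters are not given in the sources used here. Dividing by each column's step returned whole reads for 100% of the values within 0.01; in 2 columns the step lies too near 1 to tell scaled from unscaled values.

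The log2(value + 5) of each interval entered limma 3.58.1 (R 4.3.3) in 1 fit of 26 group means to 69 libraries with a mean-variance trend, tested over the 155734 intervals that reached a value of 10 in 2 or more libraries, which kept all 3009 chosen ones. A call needs a Benjamini-Hochberg adjusted p under 0.05 and a log2 change, or a range of 3 fitted means, of at least 1. Fold changes on this scale understate those of low intervals. The script was tested on simulated counts. The alternatives were equal library totals, quantile normalization, pseudocounts of 1 and 20, testing with no filter, edgeR 4.0.16 on the recovered reads, a fit of only the groups compared, all 71 libraries, replicate blocks, leaving out each library, the doubted libraries and the shifted runs. Figures used matplotlib 3.10.9.

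The intervals, comparisons and lists were chosen with earlier results of these data known. Named intervals are the 6 with the largest WT rise, the typical one, the 3 with the highest mean, up to 2 a direction with the largest called change in each comparison without overlap between groups, those at the limits of the choice, the longest run, and the extremes of the MUT course. Those with the largest rise or change and the extremes needed a mean value at or above the median of all intervals.

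Replicate numbers were checked for pairing by the correlation of deviations from group means. Every same-numbered pair was above 0.1 for the MUT populations on day 5 (lowest 0.12) and day 7 and for the p2 fractions (lowest 0.11), and the labels do not say what a number marks. This was not so for comparisons between days, the WT populations on day 9, the MUT populations on day 11 or MUT against WT. MUT day 9 has only 2 numbers. No pair of libraries held identical values, and correlations within groups were 0.944 to 0.984. Counting errors given cover sampling of reads only, since some reads can stem from 1 molecule.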

Additional observations from a re-analysis of the deposited data

Results flagged for a closer look

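In 345 of the 3009 intervals (11.5%) the MUT rise from day 5 to day 7 differed among the 3 populations by at least 1 (limma interaction F-test, adjusted p under 0.05), against 6.09% of all intervals. The difference between the largest and the smallest rise was 3.35 in Interval_121099 and 3.02 in Interval_48124, with p0-p1 rising the most in both. In 133 intervals (4.42%) the difference of NFIAp from NFIAn on WT day 9 was not the same in p2 and pMN (limma interaction test), lower in p2 in each, against 1.63% of all intervals in either direction. Leaving out 1 library gave 5 to 205, and a fit of only the groups compared gave 3. The p2 minus pMN difference was -2.15 in Interval_58799 and -2.10 in Interval_25181, and in that smaller limma fit their adjusted p were 0.128 and 0.0707. These results were drawn out because the same contrast differed between populations in a direct test.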

How the results depend on the processing

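No result changed direction. A pseudocount of 20, which shrinks every log2 change by construction, left 1148 intervals for the MUT rise by day 7, 1187, 1274 and 1031 for p0-p1, p2 and pMN alone, 147 for day 9 against day 7, 114 for day 11 against day 7 and 2 for MUT against WT on day 9. It left 229 for the WT populations on day 9, 343, 345, 247 and 112 for the MUT populations on days 5, 7, 9 and 11, 82 for the p2 fractions and 228 for the rise that differed among populations. With it in the choice itself, 1552 intervals were chosen and 899 met the conditions in MUT. edgeR called 579, 500 and 31 for MUT day 9 against day 7, day 11 against day 7 and MUT against WT on day 9. The last was 27 with a pseudocount of 1, 20 with equal totals and 8 with quantile normalization, of which 5 were higher and 3 lower. A fit of only the groups compared gave 92 for the p2 fractions and 3 for their difference from pMN. The replicate block within genotype and day, as a random effect, gave 3 for the pMN fractions and 201 for the difference between p2 and pMN, and 618, 600 and 198 for the MUT populations on days 5 and 7 and the p2 fractions. The replicate block across all libraries gave 618, 586 and 198 for the latter 3, so no other paired count moved by over 1.5 times. Without the doubted p2 libraries 1 interval was called in the pMN fractions.

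Leaving out each library in turn gave 2192 to 2326 for the MUT rise, and 2063 to 2268, 2184 to 2381 and 1660 to 1914 for p0-p1, p2 and pMN alone. For MUT day 9 against day 7 it gave 347 to 413, for day 11 against day 7 306 to 370, for day 11 against day 5 2457 to 2507 and for MUT against WT on day 9 9 to 25. It gave 404 to 545 for the WT populations on day 9, and 608 to 667, 542 to 621, 288 to 447 and 297 to 416 for the MUT populations on days 5, 7, 9 and 11. The p2 fractions gave 140 to 249, the pMN fractions 0 to 0, the difference between them 5 to 205 and the rise that differed among populations 257 to 358. The choice gave 2814 to 3215 intervals and the same conditions in MUT 1484 to 1586. A group left with 1 library is assumed to vary like the others.

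Of the named intervals, 839 values under other settings kept their call and 7 lost it. Interval_24687 fell from MUT day 7 to day 9 by 0.92 with a pseudocount of 20 and by 0.97 with equal totals. Interval_128214 was higher in MUT than in WT on day 9 by 0.96 with a pseudocount of 20. Interval_58799 had an adjusted p of 0.128 in the limma fit of only the groups compared, and Interval_25181 0.0707. At the median level of these intervals counting error is 14.0%, which limits single libraries. Groups of 2 limit the WT day 5, day 7 pMN and day 9 values.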
